A study of Mus musculus with 12 samples.

Results

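The 46 genes described here encode the proteins that license replication origins, open the DNA and run the replication fork, together with E2f1 and E2f2 and with factors that act on newly copied chromatin. They were chosen by symbol, all 46 were found in both deposited tables among 24015 symbols, and all 46 passed the filter on low counts in both cultures. RNA sequencing compared primary B cells from wild-type (WT) mice with those of littermates carrying T58A. This mutation replaces a MYC residue that, once phosphorylated, targets the protein for breakdown. B cells from marrow were cultured for 48 h in IL7, on which B cell precursors depend, and B cells from spleen for 48 h in LPS, a component of bacterial walls that makes mature B cells divide and secrete antibody. Each genotype had 3 libraries in each culture, and no group differed by any other allele or agent in the labels. The labels give neither the zygosity of T58A nor the animal behind each library, so p-values measure the spread between libraries, which may be technical in part. Normal and mutant Myc transcripts are counted together, so read counts do not check the genotype.

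Replication begins in G1, when the origin recognition complex, CDC6 and CDT1 load the ring of MCM2 to MCM7 onto origins. At the start of S phase the kinase CDC7 with its activator DBF4 triggers the addition of CDC45 and the GINS complex, which turns the ring into a moving helicase. Polymerase alpha with primase starts each strand, polymerases epsilon and delta extend it on the PCNA clamp, and FEN1 and LIG1 join the lagging-strand pieces. Genes of this kind are well-known targets of the E2F factors, and MYC is known to drive resting lymphocytes into the cycle.

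The libraries held 8486753 to 10201113 reads assigned to genes in IL7 cultures and 5110746 to 9332410 in LPS cultures. Values are normalised read counts, that is, reads divided by 1 size factor per library. The B cell markers Cd79a and Pax5 had reads in every library. In IL7 cultures 4 B cell genes were lower in T58A with the libraries compared by pair. Ms4a1, which encodes CD20, fell by 0.77, the antigen receptor chains Cd79b and Cd79a fell by 0.53 and 0.46, and the adaptor Blnk fell by 0.39 on the log2 scale (limma adjusted p from 0.00281 to 0.0185). The B cell factor genes Ebf1 and Pax5 did not pass, with log2 changes of -0.18 and 0.07. None of these genes passed in LPS cultures. In IL7 cultures the pre-B markers (among them Vpreb1, Igll1 and Il7r) summed to 2360 to 2845 CPM (read counts scaled to library depth) in WT and 2006 to 2250 in T58A. Of these 7 markers, 3 passed as lower (Vpreb3, Rag1 and Rag2), against 6.31% of all genes tested. Vpreb1, Igll1 and Il7r did not pass. Markers of myeloid cells summed to 113 to 235 CPM in WT and 80.7 to 141 in T58A, with 0 of 10 tested genes past the threshold and a median log2 change of -0.96. Red cell markers were near 0, at no more than 0.784 CPM in any IL7 library. In LPS cultures the plasmablast markers (Prdm1, Xbp1, Irf4, Sdc1 and Igj) summed to 11885, 4771 and 12246 CPM in WT 1, 2 and 3. In T58A they summed to 5061 and 2900 in the columns whose header does not give their number, and to 8334 in T58A 3. Igj held 63378, 17254 and 59432 of the 83441, 31938 and 84330 normalised reads of this sum in WT. Of these 5 markers 0 passed, against 0% of all genes, and 0 had an estimate above 0 (median log2 change -0.60). The part of these marker shifts in the results was not tested, and in bulk RNA fewer cells of a type and less RNA per cell cannot be told apart. By sex-linked transcripts WT 1 and WT 2 were female and all other libraries male in both cultures, so only pair 3 was of 1 sex. IL7 WT 2 also held reads of Y-linked genes (Ddx3y at 42.6) and of Igj, which encodes the chain that joins secreted antibody units, at 611 (WT 1 and WT 3 had 89.1 and 105).

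Promoters are shown for Dnmt1, Mcm2 and Mcm5, the 3 genes with the smallest IL7 p that have a RefSeq entry (GRCm38.p6), because these genes moved together in IL7 cultures. Each sequence is the 250 bases before the listed start, 5′ to 3′ on the gene's strand, and capitals mark motif matches. Dnmt1 is read at chr9:20952980-20953229 on the minus strand, Mcm2 at chr6:88898781-88899030 on the minus strand, and Mcm5 at chr8:75109259-75109508 on the plus strand. The Dnmt1 window lies before the start of the transcript that GENCODE M21 tags as principal, and inside the gene's annotated span, because another transcript starts further upstream.
Dnmt1: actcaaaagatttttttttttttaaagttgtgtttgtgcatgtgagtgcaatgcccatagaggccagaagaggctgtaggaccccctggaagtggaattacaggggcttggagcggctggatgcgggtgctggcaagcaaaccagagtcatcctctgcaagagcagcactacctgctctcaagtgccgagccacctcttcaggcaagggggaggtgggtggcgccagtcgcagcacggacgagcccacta
Mcm2: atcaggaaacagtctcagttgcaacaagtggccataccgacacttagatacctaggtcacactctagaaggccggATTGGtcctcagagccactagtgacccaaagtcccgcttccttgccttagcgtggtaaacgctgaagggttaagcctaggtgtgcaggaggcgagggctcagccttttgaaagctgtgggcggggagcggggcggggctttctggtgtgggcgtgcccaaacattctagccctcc
Mcm5: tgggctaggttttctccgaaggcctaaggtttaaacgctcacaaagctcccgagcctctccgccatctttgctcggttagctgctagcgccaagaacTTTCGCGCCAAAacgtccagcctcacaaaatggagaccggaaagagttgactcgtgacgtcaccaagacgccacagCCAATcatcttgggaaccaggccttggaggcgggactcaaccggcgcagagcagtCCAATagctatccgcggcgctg

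The motifs searched on both strands were an E2F-like set (TTTGGCG or TTTCCCG or TTTCGCG or TTTGCCG), the E-box CACGTG, a sequence that MYC with MAX can bind, and CCAAT, a sequence bound by NF-Y. Mcm5 held overlapping E2F-like matches 153 and 148 bases before its start and CCAAT matches at 77 and 22 bases. In Mcm2 a single CCAAT match lay on the other strand, 175 bases before the start. The Dnmt1 window shown held none of the letters, although another of the 3 windows listed for that gene holds an E2F-like match. Among the 46 genes, 38 had 49 windows of 250 bases before and 50 after a start, and 46.9% of these windows held an E2F-like match against 6.70% of all 32851 windows. CACGTG stood in 14.3% of their windows against 7.15%, and CCAAT in 61.2% against 37.4%. These shares describe the letters in the windows and are not binding sites. In IL7 cultures the median log2 change was 0.18 for the 23 genes with an E2F-like match and 0.08 for the 15 without. Of these, 5 and 1 passed as higher. For CCAAT the median was 0.18 for the 25 genes with a match and 0.15 for the 13 without, with 5 and 1 higher. For CACGTG it was 0.19 for 7 genes with a match and 0.17 for 31 without, with 1 and 5 higher. Whether genes with and without a match differed was not tested. Pole, which had the largest IL7 estimate of the 46, had no window.

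Levels per length were compared within each culture as RPKM, reads per kilobase of exon scaled to the depth of the library, with the exons of GENCODE M21. In IL7 WT cultures the highest were Pcna, the sliding clamp, at 185 ± 18 RPKM, Uhrf1, which brings DNMT1 to newly copied DNA, at 182 ± 22, and Mcm3 at 179 ± 26 (SD, n = 3). Lowest were Mcm8 at 11.1 ± 1.7 RPKM, Orc1 at 12.9 ± 3.5 and Gins2 at 15.7 ± 1.4 (SD, n = 3). MCM8 is a relative of the ring subunits that acts in recombination and is not part of the MCM2 to MCM7 ring. Of 45 neighbours in the IL7 WT order, 42 had overlapping ranges over the 3 libraries, so most neighbouring ranks cannot be separated. The 6 subunits of the ring, which assemble in equal number, spanned 108 RPKM (Mcm7) to 179 RPKM (Mcm3), a 1.67-fold range.

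In LPS WT cultures the highest levels were Mcm6 at 89.4 ± 15 RPKM, Pcna at 76.7 ± 17 and Mcm3 at 76.3 ± 19 (SD, n = 3). Gins2 at 6.60 ± 1.5 RPKM, Mcm8 at 7.26 ± 0.12 and Orc1 at 7.38 ± 0.75 were lowest (SD, n = 3). The ring subunits spanned 39.1 (Mcm7) to 89.4 RPKM (Mcm6), a 2.28-fold range, and the ranges of 44 of 45 neighbours in the order overlapped. The order of the genes was alike in both cultures (Spearman 0.89 over 46 genes, a description). The tables were normalised separately, and RPKM was scaled to all reads of a library. Side by side 45 of 46 genes had the higher RPKM in IL7 WT, 44 with no overlap. The exception was Rfc2, a clamp loader subunit, at 32.9 RPKM with IL7 and 33.7 with LPS. The share of all genes that stood apart in this way was not computed, so these counts do not set the 46 genes apart from others. Igj alone had 17254 to 63378 normalised reads in LPS WT libraries and 89.1 to 611 in IL7 WT. Its part in the difference was not tested. Uhrf1 ranked 2 in IL7 WT and 17 in LPS WT, at 182 and 34.6 RPKM.

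**Figure D1:**
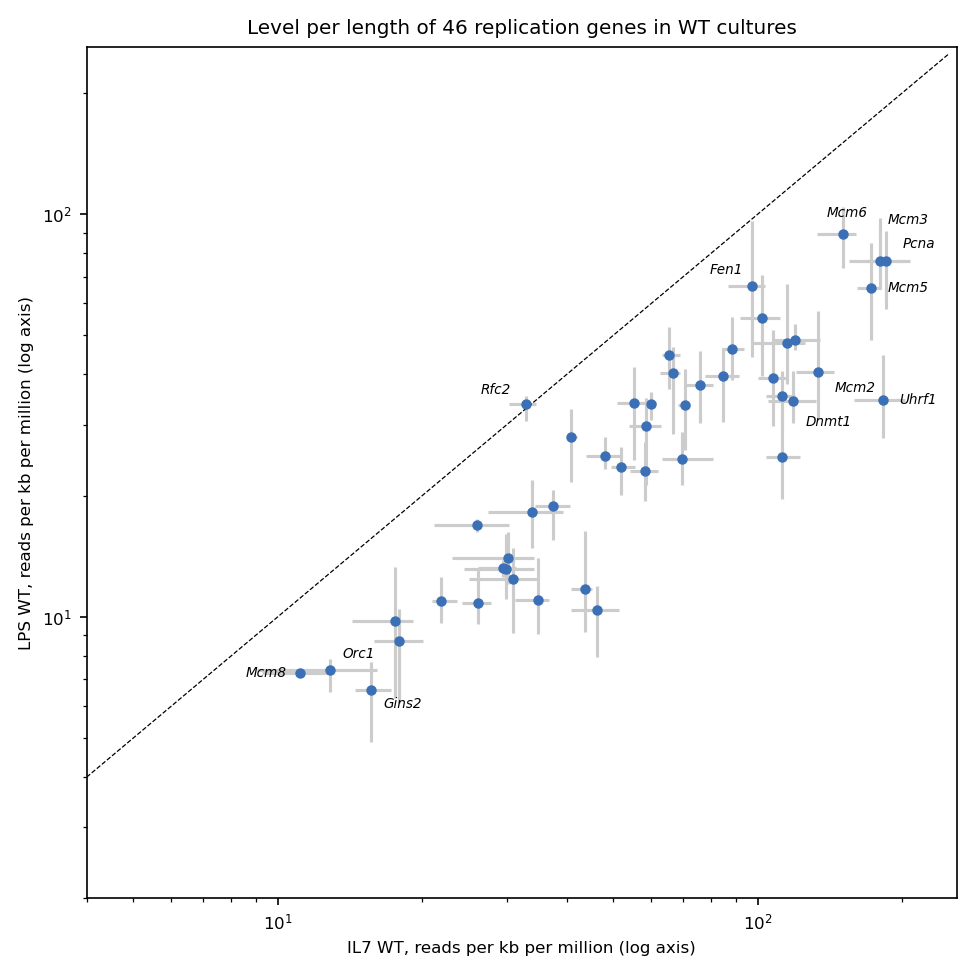
Level of each of the 46 genes in WT cultures as RPKM on log axes, IL7 against LPS. Points are means of 3 libraries, bars run from the lowest to the highest library, and the dashed line marks equal values. All genes but Rfc2 lie below the line, and Pcna, Uhrf1 and the ring subunits are among the highest with IL7.

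The next comparison asks what T58A changes for these genes in IL7 cultures. With each T58A library compared with the WT library of its pair number (the pair as a block in limma), 7 of 46 genes rose at a Benjamini-Hochberg adjusted p under 0.05, which is 15.2%. Over all 11604 genes tested 6.41% rose. None of the 46 fell, against 6.31% of all genes, and of the 46 only E2f2 had an unadjusted p under 0.05 in that direction. The genes that rose were Pole, Dnmt1, Mcm2, Mcm5, Mcm6, Mcm10 and Pola2, by 1.20-fold to 1.32-fold in their means. The estimate was above 0 for 39 of 46 genes, and the median log2 change was 0.16 against -0.01 for all genes tested. All T58A libraries stood above all WT libraries for 17 genes (37.0%, against 12.9% of all genes) and below them for 0 (against 10.8%). T58A was higher in all 3 pairs for 31 genes (67.4%, against 25.9% of all genes).

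These calls rest on the pairing and on single pairs. With the pair as a block, leaving out 1 library also takes the other library of its pair out of the estimate. Without the block, limma called 0 of the 46 genes and 0% of all genes. An unadjusted p under 0.05 was found for 11 of the 46 and for 1960 of all 11604 genes. edgeR, DESeq2 and limma-voom without the block also called 0 of the 46. edgeR and limma-voom called 0 of all genes, while DESeq2 called 1.71% of all genes with an adjusted p as higher and 1.38% as lower. With sex as a further term the count was 0, against 0.112% of all genes higher, and the median log2 change, then that of pair 3 alone, was 0.13. T58A was higher for 39, 36 and 38 of the 46 genes in pairs 1, 2 and 3 (against 49%, 50.1% and 49.2% of all genes). The medians were 0.19, 0.09 and 0.13. Only pair 3 was of 1 sex, and in pairs 1 and 2 sex and genotype cannot be told apart. Without T58A 3 only Pole passed, against 2.78% of all genes. Without T58A 2, WT 2 or WT 3 the count was 3, 4 and 4, against 2.71%, 3.19% and 3.49% of all genes. The median log2 change was 0.14 both without WT 3 and without T58A 3, although the counts differed. It was 0.16 without WT 2, without T58A 2 and without pair 2. Pair 2, whose WT library held the Y-linked and Igj reads, was also left out as a whole. That fit rests on the same pairs as those without WT 2 or T58A 2. There 4 genes rose (Cdc6, Dnmt1, Mcm2 and Pole), against 2.96% of all genes. Without WT 1 or T58A 1 the count was 8 (against 5.84% and 5.64% of all genes) and Mcm10 did not pass, while E2f2 then passed as lower. WT 1 was the lowest of the 6 libraries for 35 of the 46 genes, and T58A 3 the highest for 24. The 46 genes together took 0.919%, 1.06% and 1.05% of the reads in WT 1, 2 and 3 and 1.08%, 1.13% and 1.16% in T58A 1, 2 and 3.

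The 6 ring subunits, MCM2 to MCM7, had estimates above 0 and an unadjusted p under 0.05 in all 6 cases. Of all 11604 genes, 3490 had an unadjusted p under 0.05. After adjustment over all genes 3 of the 6 subunits passed. Mcm2 (chromosome 6, 88883474 to 88898780, GRCm38) had 3758, 4251 and 4551 normalised reads in WT 1, 2 and 3 and 4985, 5172 and 5655 in T58A 1, 2 and 3. Every T58A library lay above every WT library. The log2 change of Mcm2 was 0.33 ± 0.06 (SE), with a limma adjusted p of 0.0135. Mcm5 (chromosome 8, 75109569 to 75128439) was at 5163, 5602 and 5838 in WT and 6219, 6543 and 7169 in T58A, again with no overlap. Its log2 change was 0.26 ± 0.06 (SE, limma adjusted p = 0.0265). For Mcm6 (chromosome 1, 128331590 to 128359664) the values were 5399, 6466 and 6464 in WT and 6946, 7586 and 7533 in T58A. Here too the groups did not overlap, and the log2 change was 0.27 ± 0.06 (SE, limma adjusted p = 0.028).

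Of the ring subunits that did not pass, Mcm7 came closest. It was at 2748, 2948 and 3184 normalised reads in WT and 3193, 3230 and 3666 in T58A, a log2 change of 0.18 ± 0.06 (SE, limma adjusted p = 0.0822). The highest WT library, WT 3, stood just under the lowest T58A library, T58A 1. Mcm3 had 4346, 4940 and 5868 in WT against 5248, 5416 and 6434 in T58A. Mcm4 had 3251, 4017 and 4209 in WT against 3912, 4161 and 4847 in T58A. For both genes WT 3 stood above the lowest T58A library, and each T58A library stood above the WT library of its own pair. The log2 change was 0.18 for Mcm3 and 0.17 for Mcm4, with limma adjusted p-values of 0.0966 and 0.121.

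**Figure D2:**
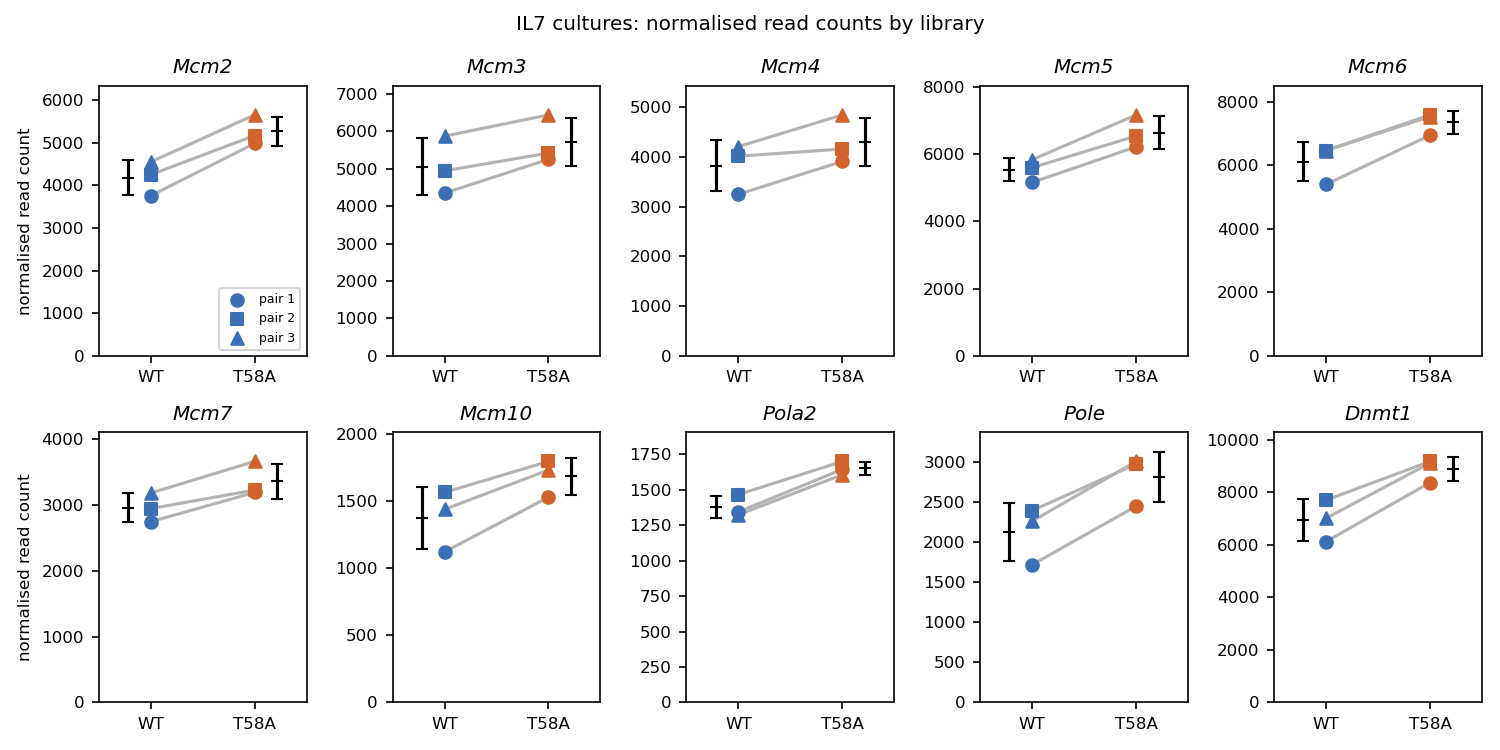
Normalised read counts in IL7 cultures of the 6 ring subunits and the 4 further genes that rose, by library, with lines joining the libraries of a pair and bars giving the mean and SD of 3 libraries. Each T58A library lies above the WT library of its pair in all 10 panels, and the groups overlap for Mcm3, Mcm4 and Mcm10.

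Among the 8 polymerase and primase genes 2 rose and all 8 estimates were above 0. Pole, the catalytic subunit of the leading-strand polymerase epsilon (chromosome 5, 110286306 to 110337474), showed the largest estimate of the 46. It was at 1720, 2395 and 2263 normalised reads in WT 1, 2 and 3 and 2450, 2975 and 3008 in T58A 1, 2 and 3. The lowest T58A library stood just above the highest WT library, and the gain within pairs was 0.51, 0.31 and 0.41 on the log2 scale. Across the pairs the log2 change was 0.41 ± 0.07 (SE), with a limma adjusted p of 0.00956. Pola2, the regulatory subunit of polymerase alpha (chromosome 19, 5940542 to 5964202), was at 1345, 1467 and 1325 in WT and 1645, 1701 and 1607 in T58A, with no overlap. Its log2 change was 0.26 ± 0.06 (SE, limma adjusted p = 0.0346). Pola1, the catalytic subunit of polymerase alpha, and Pold2, a subunit of polymerase delta, both missed the threshold at a limma adjusted p of 0.052. The log2 changes were 0.33 and 0.23. Pola1 lies on the X chromosome, and sex differed with genotype in pairs 1 and 2. In the same-sex pair 3 it was at 1709 in WT and 1895 in T58A. The primase subunits Prim1 and Prim2 had log2 changes of 0.01 and 0.10, with 95% intervals of -0.16 to 0.17 and -0.07 to 0.28.

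Of the 8 genes that turn the loaded ring into a helicase, 1 rose. Mcm10, which binds the helicase and polymerase alpha (chromosome 2, 4989714 to 5012791), was at 1121, 1564 and 1438 normalised reads in WT and 1529, 1795 and 1731 in T58A. WT 2 stood above T58A 1, so the groups overlapped, and the order held only within pairs. The log2 change was 0.30 ± 0.07 (SE, limma adjusted p = 0.0311). Cdc45, Dbf4 and the 4 GINS genes had log2 changes from -0.02 (Gins4) to 0.06 (Gins1). Cdc7, the kinase gene, had a log2 change of -0.10 with a 95% interval of -0.32 to 0.12. The 95% interval of Gins2, a small GINS subunit, ran from -0.15 to 0.21. It held the estimates of the ring subunits Mcm3, Mcm4 and Mcm7 (0.17 to 0.18) but not those of Mcm2, Mcm5, Mcm6 or Mcm10. Whether these genes changed less than the ring subunits was not tested.

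None of the 6 origin-loading genes passed, at a smallest limma adjusted p of 0.0686. That gene was Cdc6, the loading ATPase, at 634, 847 and 854 normalised reads in WT and 866, 888 and 1086 in T58A. The groups did not overlap, by a narrow margin, and the log2 change was 0.29 ± 0.09 (SE). Orc1, the largest subunit of the origin recognition complex, had a log2 change of 0.31 (limma adjusted p = 0.121), and Cdt1 had 0.17. Gmnn encodes geminin, which inhibits CDT1 after loading, and it had a log2 change of -0.11 with a 95% interval of -0.27 to 0.05.

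The clamp and its loader gave 0 of 6 calls. Rfc5, a loader subunit, was at 728, 787 and 843 normalised reads in WT and 874, 958 and 942 in T58A, with no overlap. Its log2 change was 0.24 ± 0.07 (SE, limma adjusted p = 0.0684), while Rfc3 was at -0.09 and Rfc4 at -0.01. Pcna itself, the gene with the highest level per length, had a log2 change of 0.05 with a 95% interval of -0.09 to 0.20. Of the 5 genes for RPA, FEN1 and LIG1, which coat single strands and finish lagging-strand pieces, 0 passed. Lig1, the DNA ligase, was at 3399, 3879 and 3708 in WT and 4113, 4138 and 4271 in T58A. All T58A libraries were higher, and the log2 change was 0.19 ± 0.06 (SE, limma adjusted p = 0.0859).

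Of the 4 genes that act on copied chromatin, 1 rose. Dnmt1, the methyltransferase that copies DNA methylation to the daughter strand (chromosome 9, 20907209 to 20959888), was at 6119, 7696 and 7008 normalised reads in WT and 8365, 9167 and 9104 in T58A. The groups did not overlap, and the log2 change was 0.36 ± 0.07 (SE, limma adjusted p = 0.0131). Uhrf1 and Chaf1a, a subunit of the histone-depositing CAF-1 complex, also had groups that did not overlap, with log2 changes of 0.22 and 0.17 and limma adjusted p-values of 0.0739 and 0.139.

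The transcription factor genes E2f1 and E2f2 gave no call. E2f2 was at 5053, 5906 and 4778 normalised reads in WT and 4929, 4933 and 4214 in T58A. Each T58A library was lower than the WT library of its pair, although the groups overlapped. The log2 change was -0.16 ± 0.07 (SE, limma adjusted p = 0.151). E2f1 had a log2 change of 0.11 (limma adjusted p = 0.391). Mcm8 was at 300, 366 and 414 in WT and 407, 474 and 400 in T58A, lower than WT only in pair 3, with a log2 change of 0.25 ± 0.11 (SE, limma adjusted p = 0.174).

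Across the 46 genes the IL7 log2 change was larger for genes with longer exons (Spearman 0.58, against 0.16 over 11502 genes tested). A gene's exon length also sets how many reads it gives, and the mean level had a Spearman correlation with the change of 0.38. With a correction for length and GC content, 19 of the 46 genes passed as higher, among them all 7 above and all 6 ring subunits, against 10.5% of all genes. The authors' deposited table gives an adjusted p for all 46 genes, and 7 were higher in T58A there, against 4.67% of its genes with an adjusted p. Of these, 6 were the ones named above, with Pola1 in place of Pola2.

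The LPS cultures address the same question in mature B cells. None of the 46 genes passed in limma without a block, as none of all 11291 genes did (0%). No gene of the 46 had an unadjusted p under 0.05, against 284 of all genes. edgeR, DESeq2 and limma-voom without a block also called 0 of the 46, against 0, 1 and 0 of all genes. Estimates were above 0 for 30 of 46, with a median log2 change of 0.05 against 0.01 for all genes. WT and T58A libraries overlapped for all 46 genes, while 3.1% of all genes stood apart as higher and 3.3% as lower. The 95% intervals were wide. For the ring subunits they ran together from -0.54 to 0.68, a span that holds their IL7 estimates. With the pairs as a block (first unnumbered column with WT 1) they ran together from -0.28 to 0.31. That span holds the IL7 estimates of the other ring subunits (0.17 to 0.27) but not that of Mcm2 (0.33). The 95% interval of Mcm2 in IL7 cultures was 0.19 to 0.48. In the LPS fit with that block 0 of the 46 genes passed in limma. An unadjusted p under 0.05 was found for 7 of the 46 and for 1889 of all 11291 genes.

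In their summed share of the reads the LPS libraries of 1 genotype differed by more than the genotypes did. The 46 genes took 0.407%, 0.369% and 0.507% of the reads in WT 1, 2 and 3. In the T58A columns they took 0.476% in the first unnumbered column, 0.388% in the second and 0.485% in T58A 3 (the header of the first and second columns does not give their number). WT 2 was the lowest library for 18 genes and the second unnumbered T58A column for 15. The first unnumbered T58A column was highest for 18 and WT 3 for 14. WT 2 and the second unnumbered column also had the lowest plasmablast marker sums of their genotypes, at 4771 and 2900 CPM. Without WT 2 the median log2 change was -0.10, and without WT 3 it was 0.20. With sex as a term it was -0.17, with 7 of 46 estimates above 0. WT 3 was the only male WT library, so that fit sets the T58A libraries against WT 3 alone. In pair 3, of 1 sex, T58A was higher for 14 of 46 genes (median -0.12, against 50% of all genes). The first unnumbered column was above WT 1 for 40 genes (median 0.23, against 52.1% of all genes), and the second was above WT 2 for 30 (median 0.06, against 51.8%).

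Mcm2 in LPS cultures was at 795, 698 and 1333 normalised reads in WT 1, 2 and 3, and at 972, 756 and 1215 in the first and second unnumbered T58A columns and T58A 3. Mcm5 was at 1541, 1124 and 2019 in WT and 1595, 1171 and 2072 in T58A in the same order. Both genes were high in WT 3 and T58A 3 and low in WT 2 and the second unnumbered column, so the groups overlapped. Mcm6, the ring subunit with the highest level, was at 2776, 2152 and 3139 in WT and 2821, 2175 and 2618 in T58A. Mcm3 was at 1404, 1323 and 2040 in WT and 1720, 1295 and 1926 in T58A. Mcm4 had 967, 912 and 1658 in WT against 1208, 950 and 1527 in T58A, and Mcm7 had 746, 591 and 1054 against 860, 674 and 859. For these 4 genes WT 3 was the highest library, and WT 2 and the second unnumbered column were the lowest of their genotypes. The log2 changes of the 6 subunits ran from -0.07 (Mcm6) to 0.09.

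The smallest p-values toward higher LPS levels belonged to Gins1, Pold1 and Pold2. Gins1, a GINS subunit, was at 86.5, 57.9 and 89.4 normalised reads in WT and 145, 83.1 and 127 in T58A. The second unnumbered column lay within the WT range, and the log2 change was 0.59 ± 0.28 (SE, limma adjusted p = 1). Pold1, the catalytic subunit of polymerase delta, was at 549, 757 and 467 in WT and 727, 1299 and 589 in T58A. The second unnumbered column stood apart from all others, and without it the log2 change fell from 0.51 ± 0.29 (SE) to 0.18. With the first unnumbered column paired with WT 1, DESeq2 called Pold1 as the only one of the 46 (adjusted p = 0.0159), against 1.08% of all genes with an adjusted p. limma with that pairing called 0 of the 46, against 0.0354% of all genes (adjusted p of Pold1 = 0.0858). Over all its alternatives the adjusted p of Pold1 ran from 0.0159 to 1. The authors' deposited table gives an adjusted p for 33 of the 46 genes and lists Pold1 alone as higher (0.0123), against 1.49% of its genes. Pold2 was at 448, 494 and 630 in WT and 606, 591 and 662 in T58A, a log2 change of 0.26.

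Toward lower LPS levels the smallest p-values were those of Dbf4, Rfc3 and Fen1. Dbf4, the activator of CDC7, was at 593, 502 and 607 normalised reads in WT and 502, 500 and 512 in T58A, a log2 change of -0.16 ± 0.15 (SE, limma adjusted p = 1). WT 2 lay at the T58A level. Rfc3 was at 221, 188 and 261 in WT and 248, 154 and 198 in T58A, a log2 change of -0.17. Fen1, the flap endonuclease, was at 993, 717 and 1600 in WT and 972, 515 and 1279 in T58A, a log2 change of -0.28. For Rfc3 and Fen1 the second unnumbered column was the lowest library, and without it the changes were 0.0045 and 0.09.

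**Figure D3:**
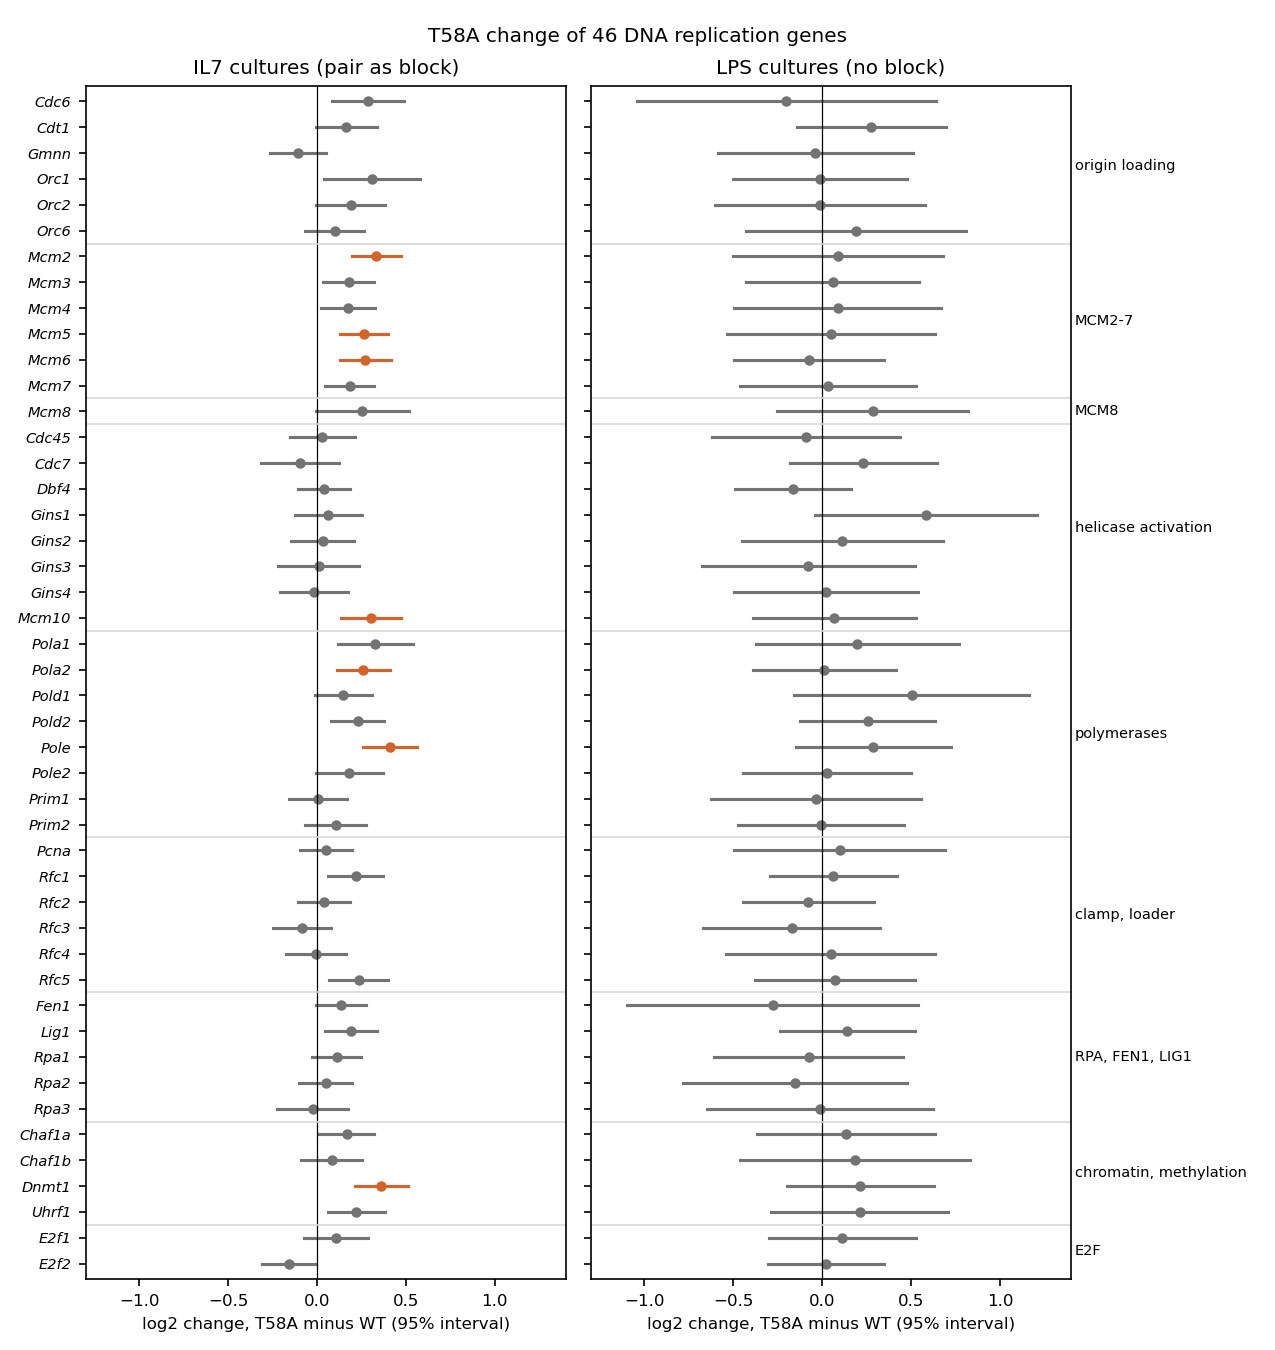
Log2 change, T58A minus WT, of the 46 genes by role in IL7 cultures (pair as a block) and LPS cultures (no block). Points are limma estimates with 95% intervals, and orange marks an adjusted p under 0.05. The 7 orange genes are all in IL7 cultures, and every LPS interval includes 0.

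Whether the T58A effect differed between the cultures was tested with an interaction term in a fit to the 12 libraries, without a block. None of the 46 genes passed, as none of all 10767 genes tested did (0%). None of the 46 had an unadjusted p under 0.05, against 479 of all genes. edgeR and DESeq2 also called 0 of the 46, against 0 and 4 of all genes. The difference, LPS change minus IL7 change, was above 0 for 16 genes and below 0 for 30, with a median of -0.10. The median over all genes tested was 0.02. Leaving out 1 library, the median of the 46 ran from -0.20 (without LPS WT 2) to 0.04 (without the second unnumbered column), so its sign depended on single libraries. With the pairs as a block (first unnumbered column with WT 1), 0 of the 46 were called. Of all genes 3.19% passed above 0 and 0.901% below. An unadjusted p under 0.05 was found for 6 of the 46 and for 2045 of all 10767 genes. The genes with the smallest p were Gins1 (0.52 ± 0.31, SE), Cdc7 (0.33 ± 0.23) and Pold1 (0.36 ± 0.34) above 0. Below 0 they were Mcm6 (-0.35 ± 0.22), Dbf4 (-0.20 ± 0.15) and Pola2 (-0.25 ± 0.19), each with a limma adjusted p of 0.996. Cdc7 was at 634, 907 and 802 normalised reads in IL7 WT and 701, 733 and 734 in IL7 T58A. In LPS it was at 398, 352 and 379 in WT and 514, 484 and 347 in T58A. The genotype groups of Cdc7 overlapped in both cultures. All 6 ring subunits had a difference below 0, from -0.35 to -0.09, with 95% intervals that together ran from -0.91 to 0.59. Over the 46 genes the estimates in the cultures had a Spearman correlation of 0.31 and were above 0 in both for 26.

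**Figure D4:**
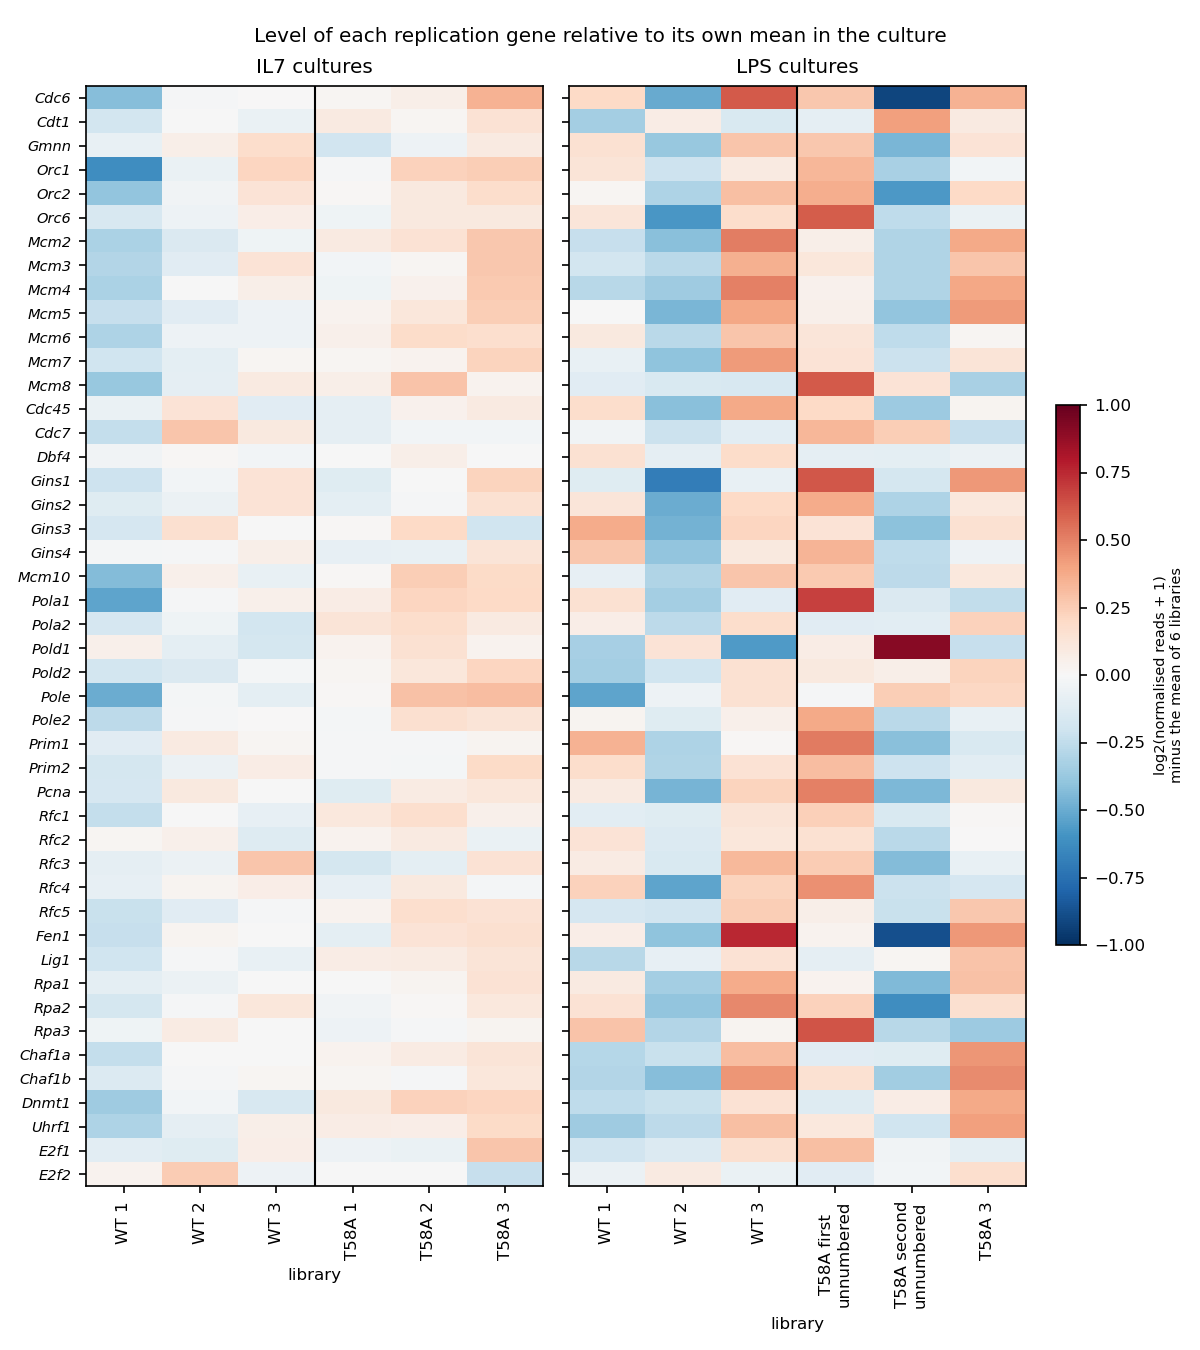
Level of each of the 46 genes in each library as log2(normalised reads + 1) minus the mean of the 6 libraries of its culture, with genes by role. In IL7 cultures WT 1 is lowest for 35 genes and T58A 3 highest for 24. In LPS cultures WT 2 is lowest for 18 genes and the second unnumbered T58A column for 15.

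Of the other genes of replication and its control, 67 of 69 were tested in IL7 cultures, and 10 rose and 2 fell. Of all genes tested 6.41% rose and 6.31% fell. The median log2 change was 0.13 for these 67 genes, against -0.01 for all genes tested. Hus1, a subunit of the checkpoint clamp, rose by 0.40 ± 0.08 (SE, limma adjusted p = 0.0156), and Atr, the checkpoint kinase, by 0.32 ± 0.08. Cdc25a, the phosphatase that activates CDK2, rose by 0.26 ± 0.07 on the log2 scale. Hells, a chromatin remodeller, rose by 0.35 ± 0.09, and Recql4, a helicase needed to start replication, by 0.32 ± 0.08. The other genes that rose were E2f3, E2f4, Chtf8 and both FACT histone chaperone genes, Ssrp1 and Supt16, by 0.22 to 0.29 on the log2 scale. The 2 that fell were Samhd1 and Pold4. Samhd1, which degrades deoxynucleotides, was at 2059, 1101 and 678 normalised reads in WT and 1102, 687 and 404 in T58A, lower in each pair, and its log2 change was -0.78 ± 0.08 (SE, limma adjusted p = 0.00246). Pold4, the small subunit of polymerase delta, was at 1019, 920 and 535 in WT and 711, 598 and 436 in T58A, with a log2 change of -0.48 ± 0.09 (SE, limma adjusted p = 0.0133). For both genes WT 3 was the lowest WT library and stood within the T58A range. Without the block none of these 12 genes passed in limma, edgeR, DESeq2 or limma-voom. Among mitotic genes such as Mki67, Cdc20 and Plk1, 0 of 15 passed in IL7 cultures, against 6.41% of all genes higher and 6.31% lower. Their summed level was 4519 to 6151 CPM in WT and 5378 to 5835 in T58A. In LPS cultures 0 of 68 other replication genes and 0 of 16 mitotic genes passed, against 0% of all genes.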

How the data were processed

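The deposited tables hold, per the file headers, 1 signal value for every gene in every library, and the authors' log2 fold change, p-value and adjusted p of T58A against WT. Per the submitters' processing notes the tools were bcl2fastq 1.8.4, TopHat2 2.1.0 on mm10, HTSeq 0.6.1 and DESeq2. By their steps these signals are reads over a size factor of the library: multiplied back, 100% of the values came out whole to within 0.001, and the recovered reads served for the count tests and the filter. Depth was 5110746 to 10201113 reads per library, so the upper limit behind a 0, taken as 3 reads, equals 2.15 to 4.12 normalised reads (counting error only).

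Groups came from titles and column headers. The LPS table has 1 header over a pair of T58A columns, called here first and second unnumbered. limma 3.58.1 (R 4.3.3) was fitted to log2(value + 1) of all genes kept by filterByExpr of edgeR 4.0.16 (minimum count 10, minimum total 15), with Benjamini-Hochberg adjustment over all of them and a threshold of 0.05. Fold changes on that scale understate changes of low genes. The IL7 fit had the pair as a block. The titles number the pairs, and DESeq2 1.42.0 with the block gave 94.0% of the authors' IL7 p-values within 1%, against 15.8% without it. In IL7 cultures the deviations of same-numbered libraries from their group means had correlations of 0.41, 0.15 and 0.40, against -0.36 to -0.05 for other pairings. For LPS the authors' values were met in 99.7% with the first unnumbered column paired with WT 1. In LPS the correlations under that pairing were 0.34, 0.66 and 0.54, against -0.50 to -0.05 for other pairings, but the headers leave 2 libraries without a number, so the LPS fit and the interaction had no block.

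The 46 genes, the other lists and the tests were chosen with earlier results of these data known. The rule for genes named with values took the ring subunits, genes past the threshold in IL7, the 3 with the smallest p per direction elsewhere, the smallest IL7 p in each role, the 3 highest and lowest levels, and up to 5 other pathway genes per direction past the threshold, by p. The other pathway genes that rose, the B cell genes, Gmnn, Orc1, Prim1, Prim2, Pcna, Rfc2, Pola1, Pold2 and other genes given by their change alone were chosen after their values were seen. Of all symbols 98.3% matched GENCODE M21, which may not be the authors' annotation and supplied positions, length and GC content. The tests were tested on simulated counts, and figures were drawn with matplotlib 3.10.9. B cell genes are given singly, and the sum and count over the B cell marker list are not reported here.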

Additional observations from a re-analysis of the deposited data

How the results depend on the processing

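The IL7 count of 7 higher genes was 0 with no replicate block in limma, edgeR, DESeq2 and limma-voom. It was 0 with sex as a covariate beside the block, 4 without pair 2 and 19 with the length and GC correction. It was also 0 with all 12 libraries in 1 fit. That fit kept the IL7 pairs as a block and took the spread from both cultures. In it 3 of all 11604 genes rose and 74 fell. Leaving out 1 library, which takes its pair out of the estimate, gave 1 to 8 of the 46 higher and 0 to 1 lower. TMM, total counts, pseudocounts of 0.5 and 5, no filter, a minimum count of 50, and edgeR, DESeq2 and limma-voom with the block gave 7 to 9, and the same 7 genes passed in each except DESeq2, where 6 did. The IL7 median stayed between 0.12 and 0.20. The LPS count was 0 in every setting but DESeq2 with a replicate block, where it was 1 (Pold1), and the interaction count was 0 throughout. The LPS median ran from -0.17 to 0.20, so its sign depended on the setting. Each value lay less than 1 SD (0.23) from the main value of 0.05. That SD is over the T58A libraries alone, each set against the WT mean. Among LPS genes, Pold2 changed sign with sex as a covariate (-0.025), a fit that sets the T58A libraries against WT 3 alone. Rfc3 changed sign without the second unnumbered T58A library (0.0045), and Fen1 without that library (0.094) or without WT 3 (0.03). Leaving out 1 library, Rfc3 ran from -0.34 to 0.0045 and Fen1 from -0.56 to 0.094. The cause of these shifts was not tested. In limma the LPS block called 0 of the 46 with either pairing of the unnumbered columns. edgeR and limma-voom with the LPS block, the IL7 fits of these tools without the block and DESeq2 with the LPS block were chosen after seeing the data. The 95% intervals of the 6 ring subunits together ran from 0.02 to 0.48 in IL7 cultures and from -0.54 to 0.68 in LPS cultures, where the shallowest library held 5110746 reads.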
